A study of Mus musculus with 20 samples.

Results

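Neutrophil granule genes were followed in mouse blood through 10 members, chosen by gene name: Mpo, Elane, Prtn3 and Ctsg, whose proteins fill the primary (azurophil) granules, and Ltf, Camp, Ngp, Lcn2, Chi3l3 (written Chil3 on the array) and Mmp8, whose proteins belong mainly to the secondary (specific) granules. These 10 genes had 12 of the 39429 non-control probes on the array, with 2 probes each for Mpo and Camp. RNA of whole blood was measured on 20 Agilent arrays in 1 colour, 5 in each of 4 groups. The groups were WT C57BL/6 mice and Il10-/- mice (B6.129P2-Il10tm1Cgn/J, which lack the anti-inflammatory cytokine interleukin 10 in every cell and serve as a model of inflammatory bowel disease), each sham-irradiated (0 Gy) or exposed over the whole body to 7 Gy of X-rays 24 h before the blood was drawn by cardiac puncture. All were male littermates of 8 to 10 weeks from crosses of heterozygous parents, kept in 1 room free of specific pathogens, and globin RNA was reduced in every sample. A level below is a log2 intensity from which the median of its array was subtracted, so that 0 is the median of the array, and levels are compared between groups for 1 probe and not between probes.

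As background, neutrophils load their granules in waves as they mature in the bone marrow. The serine proteases and myeloperoxidase of the primary granules are transcribed in promyelocytes, and the secondary granule proteins later, in myelocytes and metamyelocytes, while mature neutrophils in blood carry the stored proteins and little of the messages. Transcripts of these genes in blood are therefore known as a mark of immature neutrophils, although Lcn2 is also made by the liver in inflammation and Chi3l3 by macrophages. C/EBP and PU.1 factors are known regulators of both waves.

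Promoters are shown for Mpo, Prtn3 and Chi3l3, which were called in a response to irradiation, for Ltf, Camp and Ngp, which had the largest differences between unirradiated genotypes, and for Elane as the neighbour of Prtn3. The bases are those of RefSeq on GRCm38.p6, the 250 before the annotated start of each gene, read 5′ to 3′ on the strand of the gene. Capitals mark a C/EBP-type core TTGCNNNA or a PU.1 core GAGGAA on either strand.
Mpo chr11:87793534-87793783 (+): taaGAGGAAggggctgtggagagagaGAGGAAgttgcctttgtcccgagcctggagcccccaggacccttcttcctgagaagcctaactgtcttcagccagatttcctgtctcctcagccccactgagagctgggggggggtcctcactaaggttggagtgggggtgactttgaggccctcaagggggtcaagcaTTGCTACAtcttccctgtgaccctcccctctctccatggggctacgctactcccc
Elane chr10:79886062-79886311 (+): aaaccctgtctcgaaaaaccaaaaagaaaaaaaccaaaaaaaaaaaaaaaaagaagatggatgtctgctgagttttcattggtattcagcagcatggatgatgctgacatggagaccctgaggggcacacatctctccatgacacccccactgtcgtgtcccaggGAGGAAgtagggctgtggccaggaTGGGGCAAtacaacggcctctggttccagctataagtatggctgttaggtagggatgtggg
Prtn3 chr10:79879417-79879666 (+): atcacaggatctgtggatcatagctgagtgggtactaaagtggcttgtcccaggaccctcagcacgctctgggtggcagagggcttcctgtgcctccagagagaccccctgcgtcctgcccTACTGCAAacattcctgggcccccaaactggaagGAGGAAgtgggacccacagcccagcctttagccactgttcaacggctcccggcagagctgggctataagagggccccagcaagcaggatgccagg
Ltf chr9:111019042-111019291 (+): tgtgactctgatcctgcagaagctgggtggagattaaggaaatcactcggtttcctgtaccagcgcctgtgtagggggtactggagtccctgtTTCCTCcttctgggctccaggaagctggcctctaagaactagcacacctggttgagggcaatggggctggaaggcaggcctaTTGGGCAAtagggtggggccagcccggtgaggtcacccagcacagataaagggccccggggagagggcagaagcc
Camp chr9:109849457-109849706 (-): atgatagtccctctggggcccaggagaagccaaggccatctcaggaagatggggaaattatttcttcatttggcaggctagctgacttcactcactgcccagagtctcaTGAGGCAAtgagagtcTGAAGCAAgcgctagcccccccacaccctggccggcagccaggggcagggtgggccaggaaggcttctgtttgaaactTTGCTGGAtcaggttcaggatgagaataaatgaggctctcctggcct
Ngp chr9:110419558-110419807 (+): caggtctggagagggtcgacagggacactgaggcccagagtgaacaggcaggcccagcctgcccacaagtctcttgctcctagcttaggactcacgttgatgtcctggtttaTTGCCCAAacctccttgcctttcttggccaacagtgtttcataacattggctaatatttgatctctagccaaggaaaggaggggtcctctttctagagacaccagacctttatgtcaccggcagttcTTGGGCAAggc
Chi3l3 chr3:106167565-106167814 (-): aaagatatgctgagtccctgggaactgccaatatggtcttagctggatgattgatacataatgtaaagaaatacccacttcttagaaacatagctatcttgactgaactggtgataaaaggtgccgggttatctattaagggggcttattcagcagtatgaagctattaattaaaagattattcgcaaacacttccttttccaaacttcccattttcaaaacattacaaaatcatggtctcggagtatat
All 10 members had a promoter in the RefSeq table. The core TTGCNNNA, which overlaps its stricter form TTGCGCAA, was present in 8 of the 10 promoters and in 29.3% of all 32851 promoters of that length, and absent from those of Ctsg and Chi3l3. The PU.1 core was present in 7 of 10 and in 23.3% of all, and absent from Camp, Ngp and Chi3l3. The strict TTGCGCAA was in none of the 10 (0.164% of all), and the erythroid GATA core AGATAA in 2, Ltf and Chi3l3 (9.99% of all). These are matches of letters only. Prtn3 and Elane lie 6645 bases apart, start to start, on chromosome 10. Camp, Ngp and Ltf lie in that order on chromosome 9, with 570352 bases between the starts of Camp and Ngp and 599484 between those of Ngp and Ltf.

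Several facts about the arrays touch the results. The probe for Il10, the deleted gene, was at −2.64 to −1.06 on the arrays labelled WT and above background on none of the 10, and at 1.94 to 3.29 on those labelled Il10-/-, above background on all 10. This is opposite to what the labels state of the gene, and whether the probe lies in the deleted part was not tested, so every direction between genotypes below rests on the labels. Each of the 5 slides held 1 array of every group, and the replicate number is that of the slide. On slides 3 and 4 the groups stood in the reverse order of positions to slides 1, 2 and 5. Replicate 5 of the mice labelled WT at 0 Gy was the weakest array, with 29.9% of spots well above background against 34.6 to 57.8% on the other 19. Replicates 1 and 2 of every group differed less than any other pair (robust SD of their log2 differences 0.209 to 0.313, against 0.355 to 1.25 in the other 36 pairs). Whether they come from separate mice was not tested, and they are counted here as such. On 8 arrays the summed level of 12 hepatocyte genes, of which the 12 were all well above background on 7 and 11 on the other, exceeded 1000 times the array median: replicates 1, 2 and 3 of WT at 7 Gy, 3 and 4 of Il10-/- at 0 Gy, and 1, 2 and 4 of Il10-/- at 7 Gy. On the other 12 arrays this sum was 84.5 to 998. Each array is taken as 1 mouse, and the p-values rest on the spread between these samples, into which the likeness of replicates 1 and 2 enters.

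The first comparison asked how the mice labelled Il10-/- differed from WT before irradiation. All 6 secondary granule genes were higher in the mice labelled Il10-/-, by 2.65 (Chi3l3) to 5.68 (Ltf) on the log2 scale, and none of the 4 primary granule genes was called. Calls needed an unadjusted p under 0.001 in limma and, after Benjamini-Hochberg adjustment over 18581 features, a value under 0.10. Of these, 0.845% were called, every one higher. The median of the 10 members was 2.71 and that of all features 0.36, and the differences are to be read relative to that shift, which was −0.07 when arrays were scaled to their 75th percentile. In blood, more cells of a type and more RNA per cell cannot be told apart.

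Ltf encodes lactoferrin, which binds iron. Its levels in the mice labelled Il10-/- at 0 Gy were 6.00, 6.22, 3.03, 3.48 and 7.27 (replicates 1 to 5), and in WT at 0 Gy −0.66, 0.27, −1.32, 1.51 and −2.22. The groups did not overlap, and only 2 of the 5 WT arrays were well above background. The difference was 5.68 ± 0.76 (SE, n = 5 and 5), with an adjusted p of 0.0011 in limma. Since 3 of the 5 WT arrays carried background signal, no fold is given, and with normexp background correction the difference was 2.06 (adjusted p in limma 0.12). Ngp, a neutrophil granule protein of the cystatin family, was at 5.71, 6.09, 3.16, 3.02 and 7.12 against 0.59, 0.15, −1.08, 0.93 and −1.36. These groups were also apart, by 5.18 ± 0.70 (adjusted p in limma 0.0011), with 1 of 5 WT arrays well above background and a difference of 1.83 with normexp. Camp encodes cathelicidin, an antimicrobial peptide precursor. Its levels were 8.24, 8.08, 5.60, 5.97 and 9.16 against 3.52, 3.56, 3.76, 5.20 and 3.11, a difference of 3.58 ± 0.61 (11.9-fold, adjusted p in limma 0.013). The second Camp probe was also called, with 2.63 ± 0.58 and an adjusted p of 0.053 in limma. The main probe had groups apart, but those of the second overlapped. Replicates 3 and 4 of the mice labelled Il10-/- were there at 4.62 and 4.99, and WT replicate 4 at 5.02.

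Lcn2, which encodes the siderophore-binding protein lipocalin 2, was higher by 2.88 ± 0.47 (7.37-fold, adjusted p in limma 0.0092). Its levels were 9.80, 9.82, 8.25, 8.51 and 10.88 in the mice labelled Il10-/- and 6.74, 6.90, 6.68, 6.48 and 6.03 in WT. Mmp8, the neutrophil collagenase, was higher by 2.77 ± 0.57 (6.83-fold, adjusted p in limma 0.035). Both pairs of groups were apart. Chi3l3, a chitinase-like protein, was higher by 2.65 ± 0.66 (6.29-fold, adjusted p in limma 0.092), and here the groups overlapped, since replicate 3 of the mice labelled Il10-/- was at 7.51 and 3 of the WT arrays at 8.43 to 8.46. With the main probe of each gene, the groups were thus apart for 5 of the 6 secondary genes, where 4.53% of all features were, and for none of the 4 primary genes.

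Among the primary granule genes, the differences were 1.40 ± 0.47 for Prtn3 (proteinase 3, adjusted p in limma 0.22), 1.16 ± 0.50 for Mpo (myeloperoxidase, 0.28), 0.25 ± 0.57 for Ctsg (cathepsin G, 0.80) and −0.74 ± 0.42 for Elane (neutrophil elastase, 0.35). Prtn3 was at 2.18, 2.29, 1.38, 0.84 and 1.99 in the mice labelled Il10-/- and at 0.94, 0.91, 0.19, 0.89 and −1.24 in WT, so that 4 of 5 arrays lay above every WT array. Elane was at 5.10 to 6.36 against 5.54 to 7.37 in WT. Prtn3 and Mpo were each well above background on 5 of 5 arrays labelled Il10-/- but on only 2 of 5 in WT. Their differences thus rest partly on background signal, and the missing calls do not show that these genes were unchanged.

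**Figure D1:**
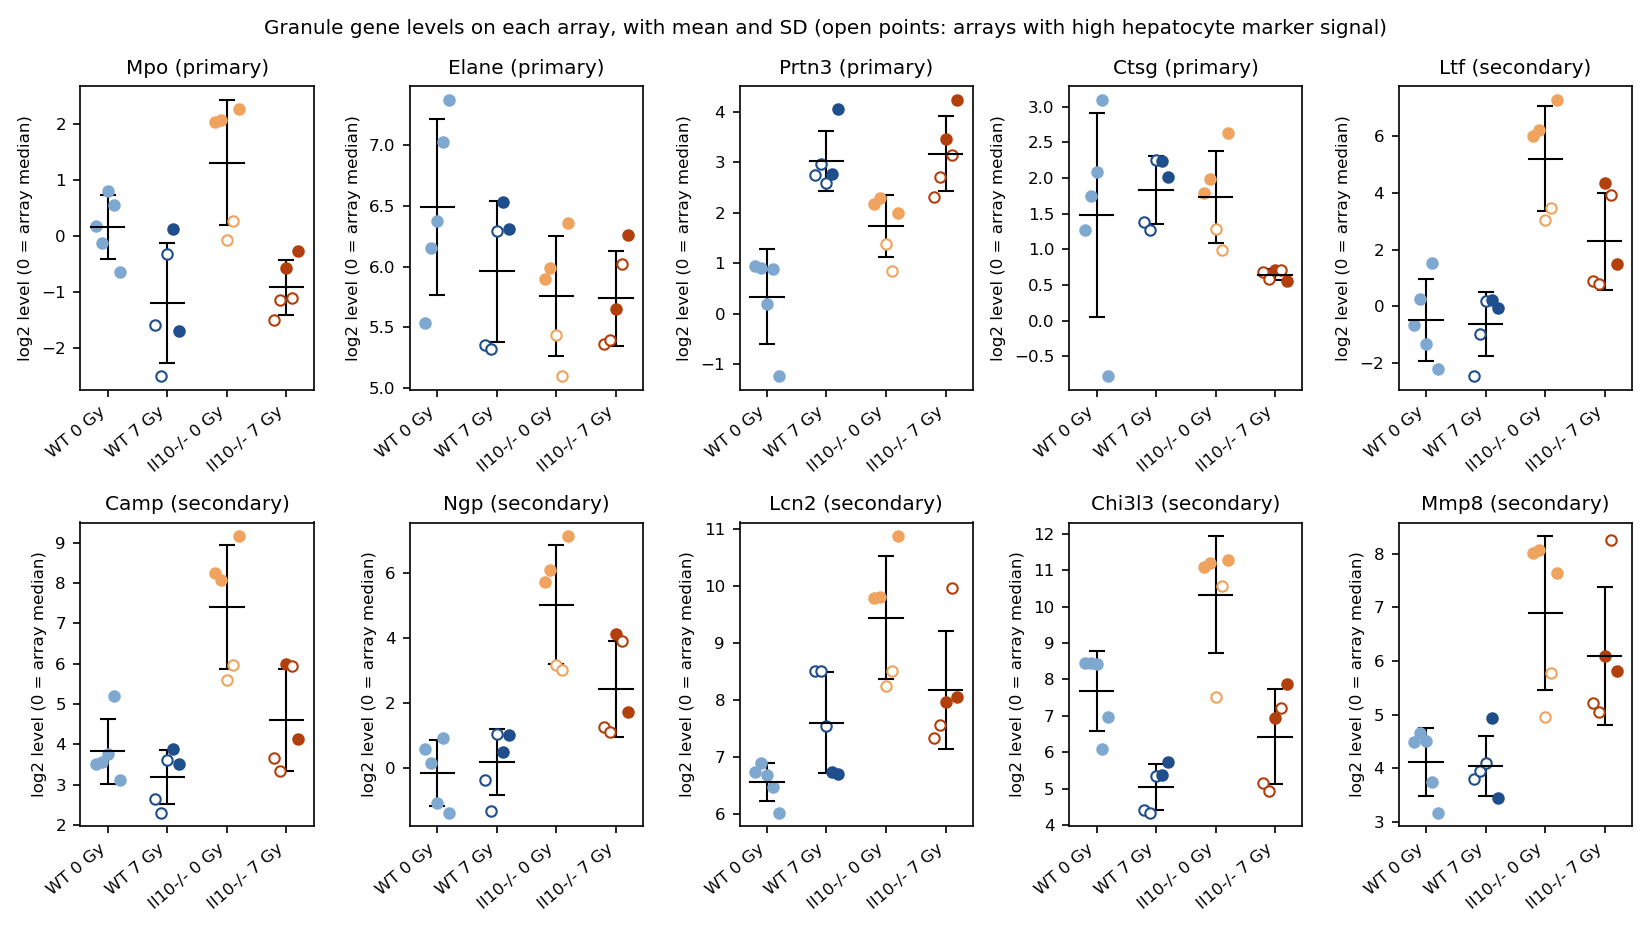
Log2 level (y axis, 0 is the array median) of each of the 10 granule genes in the 4 groups (x axis), 1 point per array, with bars for the mean and SD (n = 5). Open points are the 8 arrays with a summed hepatocyte level above 1000. The secondary genes peak in Il10-/- at 0 Gy, where replicates 3 and 4 (open) are the lowest for Ltf, Camp, Ngp, Lcn2 and Mmp8.

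Within the mice labelled Il10-/- at 0 Gy the secondary genes varied together. Replicates 1, 2 and 5 held the 3 highest levels of each of the 6, and replicates 3 and 4, which are 2 of the 8 arrays with hepatocyte signal, the 2 lowest. The part of the hepatocyte signal in these values was not tested further than by leaving the arrays out. Without the 8 arrays the 6 secondary genes were all called, with differences of 3.51 (Chi3l3) to 6.98 (Ltf), and Mpo was called too (1.97, adjusted p in limma 0.049, against 0.28 with all arrays and 0.049 to 0.54 over its alternatives). The direction of the 6 secondary genes was the same under all 23 alternatives. Ltf, Ngp and Lcn2 were called in 23 of 24 settings, Camp in 21, Mmp8 in 16 and Chi3l3 in 9, and under background correction by normexp none was called. Mmp8 was not called without WT 0 Gy replicate 4 or 5 (2.68 and 2.54, adjusted p in limma 0.18 and 0.12).

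The other genes of the pathway were read from lists of related genes. Of 15 tested genes of secondary and gelatinase granules beyond the members, 3 were higher in the mice labelled Il10-/-: Chi3l1 (written Chil1 on the array) by 3.39 ± 0.43, Lrg1 by 2.28 ± 0.41 and Hp, haptoglobin, by 2.16 ± 0.44 (adjusted p in limma 0.00088, 0.019 and 0.035). The median of the 15 was 1.04. Of 7 tested primary granule and promyelocyte genes none was called (median 0.86, highest Cd63 with 1.70). Of 13 regulators of granulopoiesis none was called either (median 0.92). Of 11 mature neutrophil genes 7 were higher (median 1.88), led by Retnlg with 2.88 ± 0.53, Fpr2 with 2.36 ± 0.51 and S100a8 with 2.35 ± 0.49 (adjusted p in limma 0.020, 0.048 and 0.042). The summed level of the 11 mature neutrophil genes was 10555 to 29284 times the array median in the mice labelled Il10-/- and 2595 to 7830 in WT. The secondary members thus moved beside genes of mature neutrophils, and shares of cells were not analysed here. Neither T-cell, B-cell, monocyte, erythroid, platelet, eosinophil nor cycling lists had a called gene, while 2 of 10 tested hepatocyte genes were called higher (list median 2.07), Alb, albumin, among them (5.75 ± 1.41, adjusted p in limma 0.088).

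The second question was how the genes responded to 7 Gy in WT mice. Of the 10 members, Prtn3 rose and Chi3l3 fell, where 6.8% of all features were called (4.48% higher, 2.32% lower), and the other 8 were not called. The median of the members was −0.10 and that of all features −0.02. Prtn3 was at 2.75, 2.96, 2.60, 2.77 and 4.06 in the irradiated mice against 0.94, 0.91, 0.19, 0.89 and −1.24 before. The 5 irradiated arrays were all above the unirradiated ones, and above background on 5 of 5 against 2 of 5. Prtn3 was higher by 2.69 ± 0.48 (adjusted p in limma 0.0021). Since 3 of the 5 unirradiated arrays carried background signal, no fold is given, and with normexp the difference was 0.81 and not called. Chi3l3 fell from 8.45, 8.46, 8.43, 6.08 and 6.97 to 4.43, 4.35, 5.36, 5.39 and 5.72, again without overlap, by 2.63 ± 0.51 (adjusted p in limma 0.0037). Among all features, 16.1% had groups that did not overlap.

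No secondary gene besides Chi3l3 was called in WT. Ltf was at −2.45, −0.96, 0.17, 0.23 and −0.05 after 7 Gy, and its difference was −0.13 ± 0.66 (adjusted p in limma 0.92). The signal of Ltf stood clear of background on 2 unirradiated and 1 irradiated array and that of Ngp on 1 and 1, of 5 each, so that their differences in WT are mostly of background signal. Ngp differed by 0.33 ± 0.56, Camp by −0.64 ± 0.46, Mmp8 by −0.07 ± 0.42 and Lcn2 by 1.04 ± 0.44 (adjusted p in limma 0.74, 0.40, 0.93 and 0.13). Lcn2 was higher in all 5 pairs of arrays on a slide, and its 3 highest arrays, replicates 1, 2 and 3 with 8.52, 8.51 and 7.55, are those with hepatocyte signal, while replicates 4 and 5 were at 6.75 and 6.72. Without the 3 arrays its difference was 0.17.

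Of the primary genes, Mpo differed by −1.35 ± 0.50 (adjusted p in limma 0.082), Elane by −0.53 ± 0.44 (0.46) and Ctsg by 0.35 ± 0.58 (0.74). Mpo was well above background on 2 unirradiated and 1 irradiated array of 5 each, so its difference, negative on all 5 slides, is mostly of background signal. Elane and Prtn3, which lie side by side, gave −0.53 and 2.69. Prtn3 was called in 23 of 24 settings (all but normexp, where it was 0.81), and Chi3l3 in 22. Chi3l3 was not called with replicates 1 and 2 of each group averaged (−2.27, adjusted p in limma 0.026, and 0.0019 to 0.12 over its alternatives) nor without the hepatocyte-marker arrays (−2.12).

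In the related lists Slpi and Lrg1 rose in WT by 2.44 ± 0.49 and 2.58 ± 0.49 among 15 genes of secondary and gelatinase granules, and Cd63, a membrane protein of primary granules and of many other cells, by 2.19 ± 0.54 among 7 primary granule and promyelocyte genes (adjusted p in limma 0.0044, 0.0029 and 0.014). The medians of the 15 and of the 7 were 0.91 and 1.26, against −0.02 for all features. Of the regulators, Cebpa rose by 2.36 ± 0.51, and Irf8 and Cxcr4 fell by 1.78 ± 0.39 and 1.53 ± 0.38, with 10 of 13 not called. Cd34, of progenitors and vessel lining, rose by 3.57 ± 0.58 (adjusted p in limma 0.0012). It was the 1 called gene among 7 tested of the cycling and progenitor list, whose median was −0.52. The summed level of that list was 274 to 607 in irradiated and 596 to 2002 in unirradiated WT. None of 11 mature neutrophil genes was called (median 0.41). Markers of other cells moved at the same time: 4 of 5 mature B-cell genes fell, 5 of 10 monocyte and macrophage genes rose and 1 fell, 3 of 9 erythroid genes fell and 1 rose, 1 of 5 T-cell genes fell, and 4 of 10 hepatocyte genes rose (summed hepatocyte level 193 to 49367 in irradiated and 84.5 to 256 in unirradiated WT). None of 6 tested heart muscle genes was called (median 3.49). The summed heart muscle level was 65.1 to 6709 in irradiated and 21.3 to 280 in unirradiated WT. The part of these markers in the values of the granule genes was not tested.

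The third question was the response to 7 Gy in the mice labelled Il10-/-. Mpo and Chi3l3 fell, where 9.15% of all features were called (3.28% higher, 5.87% lower). The median of the members was −1.75 against −0.10 for all features. Mpo was at 2.05, 2.07, −0.07, 0.26 and 2.27 before and at −1.50, −1.14, −0.56, −1.10 and −0.26 after irradiation, without overlap. None of the 5 irradiated arrays was well above background, so that only a bound can be given: Mpo was at least 1.85-fold lower (log2 difference −2.23 ± 0.48, adjusted p in limma 0.0072). The bound sets the mean of the bright group against the dimmest signal that is well above background on each dim array. Chi3l3 fell by 3.91 ± 0.76 (adjusted p in limma 0.0045), from 11.09, 11.20, 7.51, 10.57 and 11.29 to 5.15, 4.94, 6.94, 7.22 and 7.87, and 4 of the irradiated arrays lay below every unirradiated one. Groups did not overlap for 3 members, all primary (Mpo, Prtn3 and Ctsg), and for 17.0% of all features.

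Prtn3 was higher after irradiation also in the mice labelled Il10-/-, in all 5 pairs on a slide, by 1.43 ± 0.39. Its unadjusted p in limma missed the threshold, although the adjusted p was 0.022. The exact permutation p, 2-sided, was 0.0079, the value that any 2 groups of 5 without overlap give. Its levels were 2.31, 2.70, 3.46, 3.14 and 4.24. Ctsg was at 0.68, 0.59, 0.71, 0.71 and 0.55 after irradiation and 1.79, 1.99, 1.28, 0.99 and 2.63 before, a difference of −1.09 ± 0.29 (adjusted p in limma 0.021, also above the unadjusted threshold), with 2 of the 5 irradiated arrays well above background. Elane differed by −0.02 ± 0.29. Of the 4 primary genes Mpo alone was called in this response.

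The secondary genes other than Chi3l3 were lower on average but not called: Ltf by −2.91 ± 0.93, Camp by −2.79 ± 0.74, Ngp by −2.60 ± 0.86, Lcn2 by −1.27 ± 0.57 and Mmp8 by −0.80 ± 0.72 (adjusted p in limma 0.041, 0.020, 0.049, 0.13 and 0.45). The differences within a slide were spread widely. On slides 1, 2 and 5 the differences of Ltf were −5.11, −5.43 and −5.79, and on slides 3 and 4 they were 1.32 and 0.45. For Ngp the same slides gave −4.46, −4.98 and −5.39 against 0.95 and 0.89, and for Camp −4.58, −4.74 and −5.02 against 0.40 and −0.03.

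Ltf, Ngp and Camp thus split between slides 1, 2 and 5 and slides 3 and 4, which had the reverse order of positions. Mmp8 (−2.80, −3.02 and −1.83 against 1.15 and 2.48) and Lcn2 (−2.47, −2.25 and −2.81 against −0.27 and 1.46) split likewise. Mpo fell on every slide, but by more on the former (−3.55, −3.21 and −2.54 against −0.49 and −1.37). Ctsg did so too (−1.11, −1.40 and −2.08 against −0.57 and −0.28). Chi3l3 also fell by more on the former (−5.94, −6.25 and −3.42 against −0.58 and −3.35), with means of −5.20 and −1.96. Its values on slides 5 and 4 were close. On slides 3 and 4 the unirradiated arrays of the mice labelled Il10-/- had the lower levels (Ltf 3.03 and 3.48) and the irradiated ones the higher (4.35 and 3.93). The unirradiated arrays of slides 3 and 4 carry hepatocyte signal, as do irradiated replicates 1, 2 and 4. Position on the slide, hepatocyte signal and mouse cannot be told apart here. Mpo, Ctsg and Chi3l3 were lower and Prtn3 was higher after irradiation on all 5 slides.

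With the slide as a replicate block no member was called in the mice labelled Il10-/- (Mpo −2.23, adjusted p in limma 0.020; Chi3l3 −3.91, 0.018). With replicates 1 and 2 averaged, none was called either. Without the 8 hepatocyte-marker arrays, which left 3 unirradiated and 2 irradiated arrays, 889 of 18581 features were called. Among them were 5 members, all lower: Camp by 3.43, Chi3l3 by 3.79, Lcn2 by 2.14, Mmp8 by 1.96 and Mpo by 2.54. Ltf (−3.58) and Ngp (−3.39) also fell in this fit but were not called. Chi3l3 was called in 22 of 24 settings and Mpo in 14 of 23. Without any 1 of replicates 1, 2 and 5 at 0 Gy, or 1, 2 and 4 at 7 Gy, Mpo was not called (−1.99 to −2.18 in these 6, with adjusted p of 0.017 to 0.022).

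**Figure D2:**
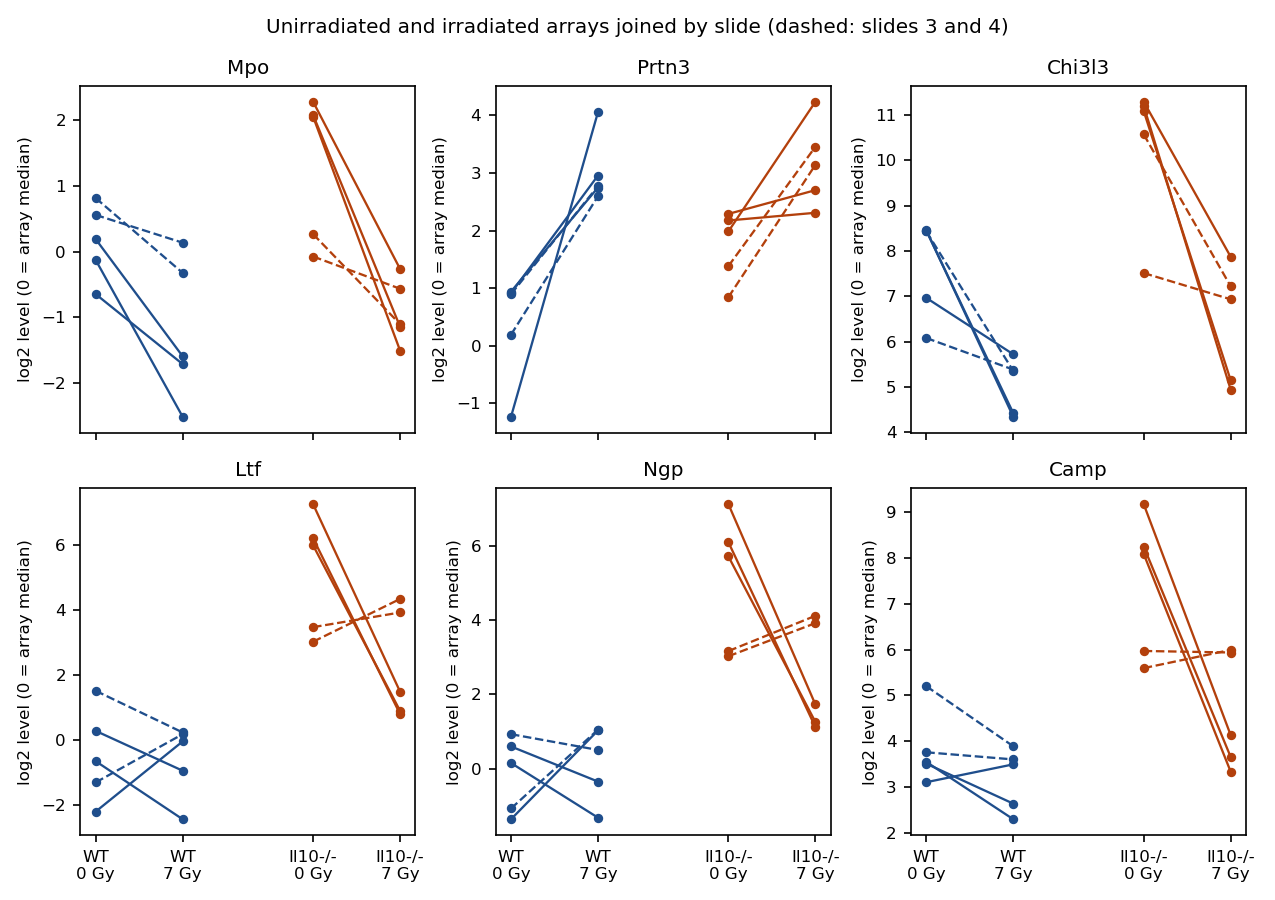
Log2 level (y axis) of 6 granule genes, with the unirradiated and irradiated array of the same slide joined by a line, for mice labelled WT (blue) and Il10-/- (red). Dashed lines are slides 3 and 4. In Il10-/-, Ltf and Ngp change by −5.79 to −4.46 on slides 1, 2 and 5 and are higher after irradiation on slides 3 and 4. Mpo is lower on every slide, and by more on slides 1, 2 and 5.

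Of the related lists in the mice labelled Il10-/-, none of 7 primary and none of 15 secondary and gelatinase genes was called (medians 0.17 and 0.28). Of the regulators Irf8, Cxcr4 and Myb, a factor of immature cells, fell by 2.02 ± 0.26, 1.89 ± 0.34 and 1.87 ± 0.30 (adjusted p in limma 0.00034, 0.0031 and 0.0014), Myb being well above background on 9 of 20 arrays. Cd34 rose by 2.05 ± 0.41 and Ube2c, a cell-cycle gene, fell by 1.92 ± 0.36. These were the called genes among 7 tested of the cycling and progenitor list, whose median was −1.05. Its summed level was 173 to 442 in irradiated and 479 to 1171 in unirradiated mice labelled Il10-/-. None of 11 mature neutrophil genes was called (median −0.09, Retnlg −1.53 and S100a8 −1.10). Their summed level was 6354 to 26189 (median 7920) in irradiated and 10555 to 29284 (median 19716) in unirradiated mice labelled Il10-/-, so that the groups overlapped. Among markers of other cells, 4 of 5 mature B-cell genes fell, 4 of 10 monocyte and macrophage genes rose and 2 fell, 4 of 9 erythroid and 1 of 5 T-cell genes fell, and 5 of 6 tested heart muscle genes rose, with a summed heart muscle level of 87.9 to 5463 in irradiated and 30.6 to 263 in unirradiated mice labelled Il10-/-. Their part in the values of the granule genes was not tested.

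In the irradiated mice, the members did not differ between genotypes at the threshold, where 0.00538% (1 feature) was called. Ltf was at 0.89, 0.79, 4.35, 3.93 and 1.48 in the mice labelled Il10-/- and at −2.45, −0.96, 0.17, 0.23 and −0.05 in WT, a difference of 2.90 ± 0.78 with an adjusted p of 0.33 in limma. In WT at 7 Gy, Ltf and Ngp were each well above background on 1 of 5 arrays, and with normexp their differences were 0.59 and 0.52. Ltf, Ngp (2.24 ± 0.69) and Mmp8 (2.04 ± 0.55) had groups that did not overlap, and with Ctsg (−1.18 ± 0.25, adjusted p in limma 0.31) these were 4 of 10 members, against 2.96% of all features. All 6 secondary genes had positive differences, from 0.57 (Lcn2) to 2.90 (Ltf), and the 4 primary genes ran from −1.18 (Ctsg) to 0.28 (Mpo). Of 11 mature neutrophil genes none was called, with a median of 1.09 against 0.08 for all features and a summed level of 6354 to 26189 in the mice labelled Il10-/- against 4156 to 7013 in WT. For all 4 members that did not overlap the exact permutation p, 2-sided, was 0.0079, which is the smallest that 5 against 5 allows. Any 2 groups of 5 without overlap give this value, so it adds nothing to that count.

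The difference between the responses of the genotypes was fitted as an interaction over 20 arrays. No feature was called (0%), and 1300 of 18581 had p below 0.05. Of the members, Lcn2 (−2.31 ± 0.73), Ngp (−2.93 ± 1.08), Camp (−2.16 ± 0.90), Ltf (−2.78 ± 1.21) and Ctsg (−1.43 ± 0.69) were among these, each with an adjusted p of 0.69 in limma. The 6 secondary differences were all negative, and so were 3 of the 4 primary ones, with Elane at 0.51. The median of all features was −0.20. The responses were therefore not shown to differ for these genes.

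**Figure D3:**
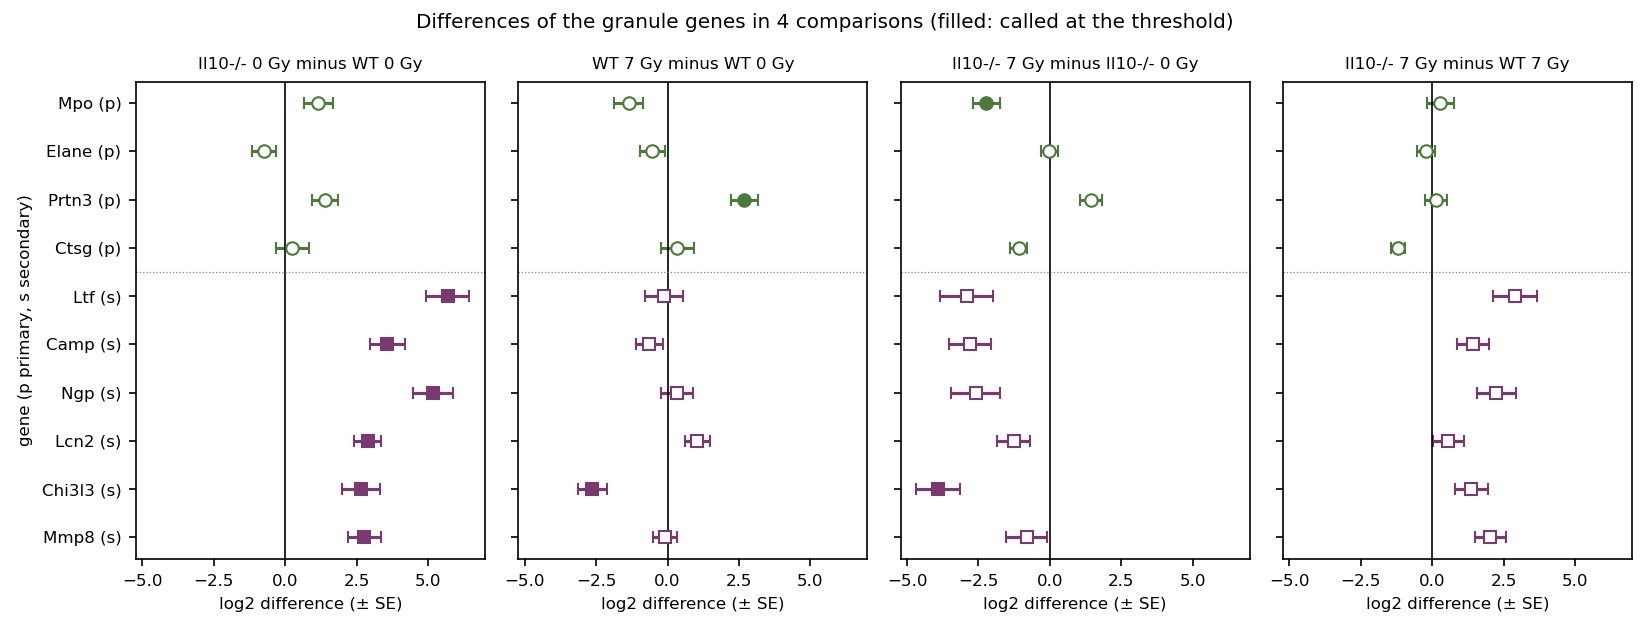
Log2 difference of each member (x axis, ± SE, limma) in the 4 comparisons named above each panel, with the 4 primary genes (circles) above the 6 secondary genes (squares). Filled symbols passed the threshold. The 6 squares are filled at 0 Gy, and 2 members are filled in each response to dose.

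The primary and secondary genes were set against each other on each array as the mean of 4 and of 6 genes, each gene first centred on its mean over 20 arrays. The primary mean minus the secondary mean was 1.00 ± 0.37 (SD, n = 5) in WT at 0 Gy, 1.64 ± 0.15 in WT at 7 Gy, −2.27 ± 0.86 in the mice labelled Il10-/- at 0 Gy and −0.37 ± 1.07 in those at 7 Gy. On single arrays it ran from 0.60 to 1.38, 1.43 to 1.78, −3.10 to −0.94 and −1.87 to 0.56. The 2 unirradiated groups did not overlap, and neither did the 2 irradiated ones nor the 2 WT groups. The 2 groups labelled Il10-/- overlapped. The secondary mean was 2.58 ± 1.48 and −1.21 ± 0.58 in the unirradiated mice labelled Il10-/- and WT, and the primary mean 0.31 ± 0.68 and −0.21 ± 0.63. No test was run on these scores, since the members were chosen. The difference between unirradiated genotypes, −3.27, was between −3.83 and −2.13 under the alternatives, and was −4.14 to −2.28 on single slides.

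**Figure D4:**
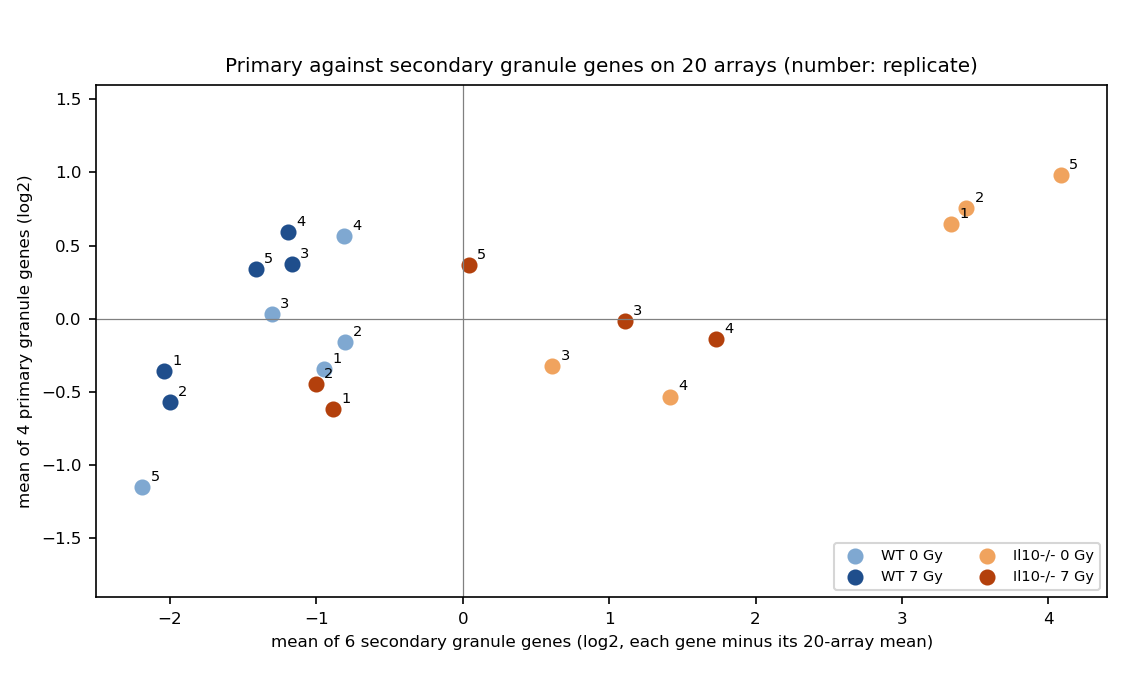
Mean of the 4 primary genes (y axis) against the mean of the 6 secondary genes (x axis) on 20 arrays, in log2 units from the 20-array mean of each gene, numbered by replicate. The 5 unirradiated Il10-/- arrays sit at 0.61 to 4.09 on the x axis, and the WT arrays at −2.19 to −0.81, while on the y axis the groups overlap.

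The secondary members varied together more closely than the primary ones over all arrays, and by less of a margin within groups. Over the 20 arrays, which share slides and 4 groups, Pearson's r between 2 secondary genes was 0.52 to 0.98 (median 0.81, 15 pairs), highest for Ltf with Ngp (0.98), and 0.42 to 0.93 after group means were subtracted (median 0.69). Between 2 primary genes it was −0.32 to 0.46 (median 0.14, 6 pairs), with 0.08 to 0.61 within groups (median 0.46). Between a primary and a secondary gene the median was 0.21, and 0.48 within groups (24 pairs). For Mpo, r with the secondary genes was 0.38 (Lcn2) to 0.85 (Chi3l3) and with the other primary genes −0.31 (Prtn3) to 0.46 (Ctsg), and within groups 0.23 to 0.72 and 0.40 to 0.61. Of Elane with Prtn3 r was −0.32 over all arrays and 0.08 within groups. These are descriptions with no test.

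The 5 genes outside the members most like the secondary mean, of 18722 compared over 20 arrays, were Retnlg (r = 0.94), Chil1 (0.94), Ankrd22 (0.94), Ceacam10 (0.93) and Mmp9 (0.91), with r of 0.84, 0.83, 0.87, 0.76 and 0.76 within groups. Retnlg, a resistin-like protein, Chil1 and Mmp9, the gelatinase of the gelatinase granules, are known in neutrophils. The 5 most like the primary mean were Eif2ak1 (0.89), Dos (0.87), Ube2m (0.87), Fbxo30 (0.87) and Adamtsl5 (0.86), with r of 0.89, 0.91, 0.95, 0.92 and 0.91 within groups. Eif2ak1, a heme-regulated kinase of red-cell precursors, leads this second list.

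The second Mpo probe was not well above background on 19 of 20 arrays and did not pass the filter, with measured group means of −0.92, −2.08, −2.21 and −1.32 in WT 0 Gy, WT 7 Gy, Il10-/- 0 Gy and Il10-/- 7 Gy. In the mm9 positions of the array files the Mpo probes lie at chr11:87617840-87617899 and chr11:87615121-87615180, that of Elane at chr10:79350902-79350961, Ctsg at chr14:56718795-56718854, Ltf at chr9:110942873-110942932, Mmp8 at chr9:7568238-7568297, Lcn2 at chr2:32240199-32240258, Chi3l3 at chr3:105950485-105950544 and the main Camp probe at chr9:109749911-109749970. Those of Prtn3, Ngp and the second Camp probe are listed as unmapped. Whether a probe lies in a coding exon or a UTR is not given in the sources used here.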

How the data were processed

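For each array the authors deposited scanner output of Agilent Feature Extraction (version 10.7 per the submitters' notes), whose processed signal is a background-subtracted intensity without scaling from array to array. The file headers give 12.0.2.2 as the version of the grid placement. Log2 values of 16909 features, which the authors scaled to a reference array, were deposited too and served as an alternative only. Here, with R 4.3.3, limma 3.58.1, data.table (1.17.8) and Python 3.11.15, the intensities were taken to log2, outlier spots left out, repeated spots averaged and the array median over 39429 non-control probes subtracted. Probes marked on 25% or more of the arrays (22988 remained) or changed 1.5-fold on under 20% (18581 remained, all 10 members among them) were removed. The study named BRB-ArrayTools, and limma was used with its thresholds, on the 10 arrays of a pair or 20 for the interaction. All members and all their probes are named, with the brightest probe that passed the filters standing for a gene. Of other lists at most 3 called genes a direction, and the 5 closest pattern neighbours, are named, and 1 called hepatocyte gene is not reported here. Members and lists were chosen with earlier results of these data known. Replicate numbers were checked as pairs: deviations of arrays on 1 slide correlated by means of −0.13 to 0.41, and no 2 groups had every slide above 0.1. Alternatives changed the scaling, background correction, filters, values, threshold, fit and probes, averaged replicates 1 and 2 and left out each replicate. Leaving out the 8 hepatocyte-marker arrays was chosen after seeing the data. The fits were tested on simulated data. The array number sets the precision.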

Additional observations from a re-analysis of the deposited data

Results flagged for a closer look

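3 values stood far from the rest of their group of 5, by the ratio of the gap to the nearest neighbour over the range of the group (critical value 0.71). Chi3l3 was at 7.51 on replicate 3 of the mice labelled Il10-/- at 0 Gy, the lowest of its group (ratio 0.81). Lcn2 was at 9.96 on replicate 4 of those at 7 Gy, the highest (0.72), and Prtn3 at 4.06 on replicate 5 of WT at 7 Gy, the highest (0.75). With 44 groups looked at, chance flags about 1 in 20. Without these arrays the difference of Chi3l3 between unirradiated genotypes was 3.36 (adjusted p in limma 0.0048) and the response of Prtn3 in WT was 2.43 (0.0057), both still called, and that of Lcn2 in the mice labelled Il10-/- was −1.71 (0.032), still not called.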

How the results depend on the processing

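The number of members called between unirradiated genotypes was 6, and 3 with 75th percentile scaling, 3 with quantile normalization and 0 with normexp, where only 4091 features and 8 members were tested (4 to 6 with 1 replicate left out). In WT the 2 calls became 1 with normexp, with replicates 1 and 2 averaged and without the hepatocyte-marker arrays. In the mice labelled Il10-/- the 2 calls became 1 with normexp or the authors' values, 0 with replicates 1 and 2 averaged, 7 at a false discovery rate below 5% alone, 5 without the hepatocyte-marker arrays, and 1 to 3 with 1 replicate left out. The primary minus secondary difference under normexp was −2.13 between unirradiated and −0.96 between irradiated genotypes, against −3.27 and −2.0. Except where stated the cause was not tested.

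The replicate number was not treated as a pairing. With it as a replicate block the members called were 6 between unirradiated genotypes, 2 in WT, 0 in the mice labelled Il10-/-, 0 between irradiated genotypes and 0 for the difference between responses, and the features called were 384 in place of 157, 1627 in place of 1263 and 1290 in place of 1700 in the first 3.

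All values that changed sign were of members not called. Ctsg between unirradiated genotypes was −0.10 with 75th percentile scaling, −0.033 with reference array scaling, −0.030 in the authors' values and −0.32 to 0.65 in leave-one-out fits, negative only without WT 0 Gy replicate 5. In the WT response it was −0.22 to 0.75 in leave-one-out fits, again negative only without that array. In WT, Ngp was −0.0078 with normexp. Ltf in WT was 0.021 in the authors' values, 0.21 with replicates averaged, 0.57 without the hepatocyte-marker arrays and −0.56 to 0.37 in leave-one-out fits. Mmp8 in WT was 0.083 with replicates averaged, 0.071 without the hepatocyte-marker arrays and −0.31 to 0.075 in leave-one-out fits. Elane in the mice labelled Il10-/- was 0.0093 with 75th percentile, 0.063 with quantile, 0.13 with reference array scaling, 0.042 with normexp, 0.12 in the authors' values, 0.12 with replicates averaged and −0.18 to 0.13 in leave-one-out fits. Between irradiated genotypes Mpo was −0.24 with quantile normalization and −0.043 to 0.62 in leave-one-out fits, negative only without WT 7 Gy replicate 2, and Prtn3 was −0.12 to 0.40, negative only without Il10-/- 7 Gy replicate 5. For Elane the difference between responses was −0.054 without the hepatocyte-marker arrays.

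Over all features, the 157 called between unirradiated genotypes were 43 with 75th percentile scaling, 25 with quantile normalization, 81 with reference array scaling, 3 with normexp, 57 in the authors' values, 66 without both filters, 76 at the 5% rate, 267 without the hepatocyte-marker arrays and 47 without WT 0 Gy replicate 4. In WT, 1263 became 687 with normexp, 2119 in 1 fit of 20 arrays, 2711 at the 5% rate, 754 with replicates averaged and 407 without the hepatocyte-marker arrays. In the mice labelled Il10-/-, 1700 became 1091 with normexp, 4050 at the 5% rate, 815 with replicates averaged, 889 without the hepatocyte-marker arrays and 1133 without Il10-/- 0 Gy replicate 1. The 1 between irradiated genotypes was 0 to 3. Of the 1263, 832 were higher, and with 75th percentile scaling 795 of 1556.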
